A study of Mus musculus with 15 samples.

Results

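The insulin-like growth factor (IGF) axis was described in uterine RNA of ovariectomized mice through 10 genes, which were the ligands Igf1 and Igf2, the receptors Igf1r and Igf2r, the binding proteins Igfbp2, Igfbp3, Igfbp4, and Igfbp5, and the adaptors Irs1 and Irs2. Members were the noncontrol probes whose gene name on the array was the same as a listed symbol, a rule that used no measured value. It found 17 probes of 9 genes among 41174 probes with 27962 distinct gene names. No probe was named Irs2, and Irs2 was not analysed here. All 17 probes were well above background on all 15 arrays, none was saturated, and all passed the filter on dim probes.

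IGF1 and IGF2 are secreted growth factors that act through IGF1R, a tyrosine kinase receptor of the cell surface. IGF2R binds IGF2 and carries it to the lysosome without a kinase signal, the binding proteins hold IGFs in the fluid around cells until proteases release them, and IRS1 and IRS2 carry the signal from IGF1R and the insulin receptor to PI3 kinase and AKT. In the rodent uterus, Igf1 is a known estrogen target, and IGF1 from the stroma is known for its part in growth of the epithelium.

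RNA was measured on 15 Agilent arrays with a single color (Cy3), 3 for each of 5 groups. Female mice of 10 weeks or more had been ovariectomized, which removes the main source of their own estrogen, and rested for 10 to 14 days before 1 injection into the peritoneum. The groups were saline (100 μL) at 24 hr, estradiol (E2) at 2 hr, estriol (E3) at 2 hr, E2 at 24 hr, and E3 at 24 hr, each hormone at 250 ng in the same volume. E3 differs from E2 by an additional hydroxyl group. The strain was C57bl6/J for 12 arrays. The 3 arrays of E2 at 2 hr came from C57bl6/Jx129 mice labeled as WT for Esr1, the gene of estrogen receptor α, and from slides and a scanner that no other group shared. For E2 at 2 hr, hormone, strain, slide, and scanner therefore cannot be told apart. In the change from 2 to 24 hr with E2, time, strain, slide, and scanner cannot be told apart either. The arrays of E2 at 24 hr and of E3 at 24 hr also lay on slides that no other group shared. In comparisons with a 24-hr hormone group, slide therefore cannot be told apart from hormone or time. Saline arrays at 2 hr were not analysed here, so the 24-hr saline arrays were the control for both times. In the 2-hr changes against saline, hormone and time since injection therefore cannot be told apart. The labels give individual uteri and the study's methods give pooled tissue. If pooled, the spread between arrays would hold less of the spread between mice. In whole-uterus RNA, fewer cells of a type and less RNA per cell cannot be told apart.

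The array's 75th percentile of intensity ranged from 2989 to 4412, and 77.8% to 81.8% of its noncontrol probes were well above background. A level below is the log2 intensity of a probe minus the log2 75th percentile of its array, so a level is compared between arrays and not between probes. A change was called at a limma p-value below 0.001 together with at least 2-fold, and adjusted p is the Benjamini-Hochberg value over all tested probes. All 6 uterine markers were well above background on all arrays. Markers of other tissues differed between groups. The mean level of 14 liver genes was −1.68 to −0.12 on the saline arrays, −7.01 to −6.81 with E2 at 2 hr, −3.29 to −2.31 with E3 at 2 hr, −4.94 to −4.74 with E2 at 24 hr, and −4.82 to −4.04 with E3 at 24 hr. The mean level of 6 exocrine pancreas genes was −7.42 to −5.12 on 11 arrays but 5.02 and −1.003 on replicates 2 and 3 of E2 at 24 hr and 6.23 and 0.31 on replicates 2 and 3 of E3 at 2 hr. With E2 at 24 hr, the median log2 change against saline was −1.84 for 6 fat markers (0 called, with saline means of −0.05 to 2.40 and E2 means of −0.84 to 0.07) and 0.98 for 6 skeletal muscle markers (3 called higher), and with E3 at 24 hr it was −0.69 and 0.78 (0 called). The part of these tissues in the members' changes was not tested.

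Sequences are shown for 3 probes inside coding sequence that carry results given later, because the genes' other probes did not always give the same change. They are an Igf1 probe (A_52_P536434) in the part that encodes the mature hormone, an Igfbp3 probe (A_51_P228472) whose 60 bases span 1010 bases of genome and thus cross an exon junction, and an Igfbp4 probe (A_51_P398971). They lie on chr10:87471884-87471943 (plus strand), chr11:7160474-7161483 (minus strand), and chr11:99157316-99157375 (plus strand) of build mm7. Capitals mark the cysteine codons in the reading frame (4, 3, and 1 of them), since disulfide bonds of cysteines hold the folds of IGFs and of their binding proteins.
Igf1: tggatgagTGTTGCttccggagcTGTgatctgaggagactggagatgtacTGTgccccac
Igfbp3: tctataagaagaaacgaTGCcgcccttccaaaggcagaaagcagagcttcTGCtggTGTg
Igfbp4: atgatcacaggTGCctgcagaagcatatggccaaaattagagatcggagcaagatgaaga

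The 250 bases before the start sites of Igf1 and Igfbp3 are shown because these members differed most between E3 and E2 at 24 hr. They were read from RefSeq promoters of build GRCm38.p6 (Igf1 chr10:87860861-87861110, plus strand; Igfbp3 chr11:7213924-7214173, minus strand), and all 10 members had an entry. Capitals mark matches on either strand to an estrogen response half-site (GGTCA, read as TGACC on the other strand), an AP-1-like string (TGANTCA), or a GC box (GGGCGG). N stands for any base, while the AP-1 consensus has C or G there.
Igf1: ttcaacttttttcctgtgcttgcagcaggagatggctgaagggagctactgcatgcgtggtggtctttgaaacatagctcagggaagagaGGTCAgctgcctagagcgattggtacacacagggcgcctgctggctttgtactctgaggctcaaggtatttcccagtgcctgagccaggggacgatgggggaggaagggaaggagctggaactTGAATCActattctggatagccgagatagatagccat
Igfbp3: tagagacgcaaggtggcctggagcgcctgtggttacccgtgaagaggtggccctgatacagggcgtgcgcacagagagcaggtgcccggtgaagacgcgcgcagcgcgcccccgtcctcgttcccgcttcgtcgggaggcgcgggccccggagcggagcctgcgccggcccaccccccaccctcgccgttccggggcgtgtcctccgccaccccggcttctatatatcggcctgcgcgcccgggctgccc

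Igf1 held 1 half-site, at position −160 from the start, and 1 AP-1-like match, at −37, with A as the middle base. Igfbp3 held none of these motifs. Of 32851 mouse promoters of the same length, 35.2% held the half-site, 6.75% the AP-1-like match, 32.7% the GC box, and 0.0639% the full consensus estrogen response element. Among the 14 promoters of the members, 6 held the half-site, 2 the AP-1-like match, 7 the GC box, and 0 the full element. The 2 matches of Igf1 did not overlap, while any full element would also count as a half-site. A match is a string of letters and not a site shown to bind.

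Igf1, the ligand, rose at 2 hr with both hormones and was still raised at 24 hr after E2 but not after E3. The coding probe (A_52_P536434) had levels of 1.01, 0.93, and 0.82 on the 3 saline arrays. They were 2.26, 2.00, and 2.00 with E2 at 2 hr and 2.37, 2.21, and 2.08 with E3 at 2 hr. The 24-hr levels were 2.17, 2.31, and 2.41 with E2 and 1.02, 1.03, and 1.20 with E3. Every array of the first 3 hormone groups lay above every saline array, whereas the arrays of E3 at 24 hr lay just above saline. The changes against saline were 2.24-fold with E2 at 2 hr (log2 1.16 ± 0.11 SE, limma adjusted p = 1.64e-06), 2.46-fold with E3 at 2 hr (1.30 ± 0.11, adjusted p = 1.29e-06), 2.60-fold with E2 at 24 hr (1.38 ± 0.11, adjusted p = 9.42e-07), and 1.12-fold with E3 at 24 hr (0.16 ± 0.11, adjusted p = 0.259).

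The probe nearest the 3′ end (A_51_P147942, chr10:87488982-87489041 of mm7), which is printed in 10 spots per array, gave the same calls against saline, except that its rise with E2 at 2 hr was 0.99 and not called with quantile normalization. Its spots varied with an SD of 0.014 to 0.041 log2 within an array. Between E3 and E2 at 24 hr its levels did not overlap, at 1.29, 1.24, and 1.41 with E3 and 2.43, 2.58, and 2.77 with E2. The difference was 2.42-fold (log2 −1.28, 95% interval −1.50 to −1.05, limma adjusted p = 9.61e-06), and that of the coding probe was 2.32-fold (log2 −1.21, −1.44 to −0.98, adjusted p = 1.50e-05). At 2 hr the E3 minus E2 difference was 0.06 (−0.17 to 0.29) and 0.14 (−0.09 to 0.37) at these probes, with overlapping arrays.

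The remaining Igf1 probe (A_52_P306327) had another course. It was designed to a cDNA clone (AK050118) that the array's annotation assigns to Igf1, lies on chr10:87420848-87420907 of mm7, 51.0 kb before the coding probe, and was high at 2 hr alone. Its levels were −1.46, −1.48, and −1.44 with saline, 0.96, 1.16, and 1.07 with E2 at 2 hr, and 1.86, 1.56, and 1.58 with E3 at 2 hr. The 24-hr levels were −1.61, −1.48, and −1.25 with E2, near saline, and −1.71, −2.06, and −1.999 with E3, below it. The 2-hr rises were 5.74-fold with E2 and 8.75-fold with E3 (limma adjusted p = 1.52e-08 and 7.29e-09), and the E2 change at 24 hr was 0.01 (95% interval −0.25 to 0.28). E3 exceeded E2 at 2 hr by 0.61 (0.34 to 0.87, adjusted p = 0.00175), with arrays that did not overlap, and was below it at 24 hr by −0.47 (−0.74 to −0.21, adjusted p = 0.00951), both under 2-fold. At 24 hr after E2, all 3 arrays of the other 2 Igf1 probes were above saline while this probe's arrays overlapped saline. Gene models of mm7 were not used here, so whether it lies in an exon or an intron was not settled.

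Within the slide that held all arrays of E3 at 2 hr and saline replicate 3, the E3 rise was 1.25 at A_51_P147942, 1.40 at the coding probe, and 3.105 at the clone probe on the log2 scale. The coding probe missed the p-value threshold there, in a fit of 4 arrays. Igf1 is also strongly expressed in liver, and liver genes were highest on the saline arrays. Their part in the Igf1 changes was not tested. At 24 hr, the liver mean of the E2 and E3 arrays overlapped (−4.94 to −4.74 and −4.82 to −4.04).

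**Figure D1:**
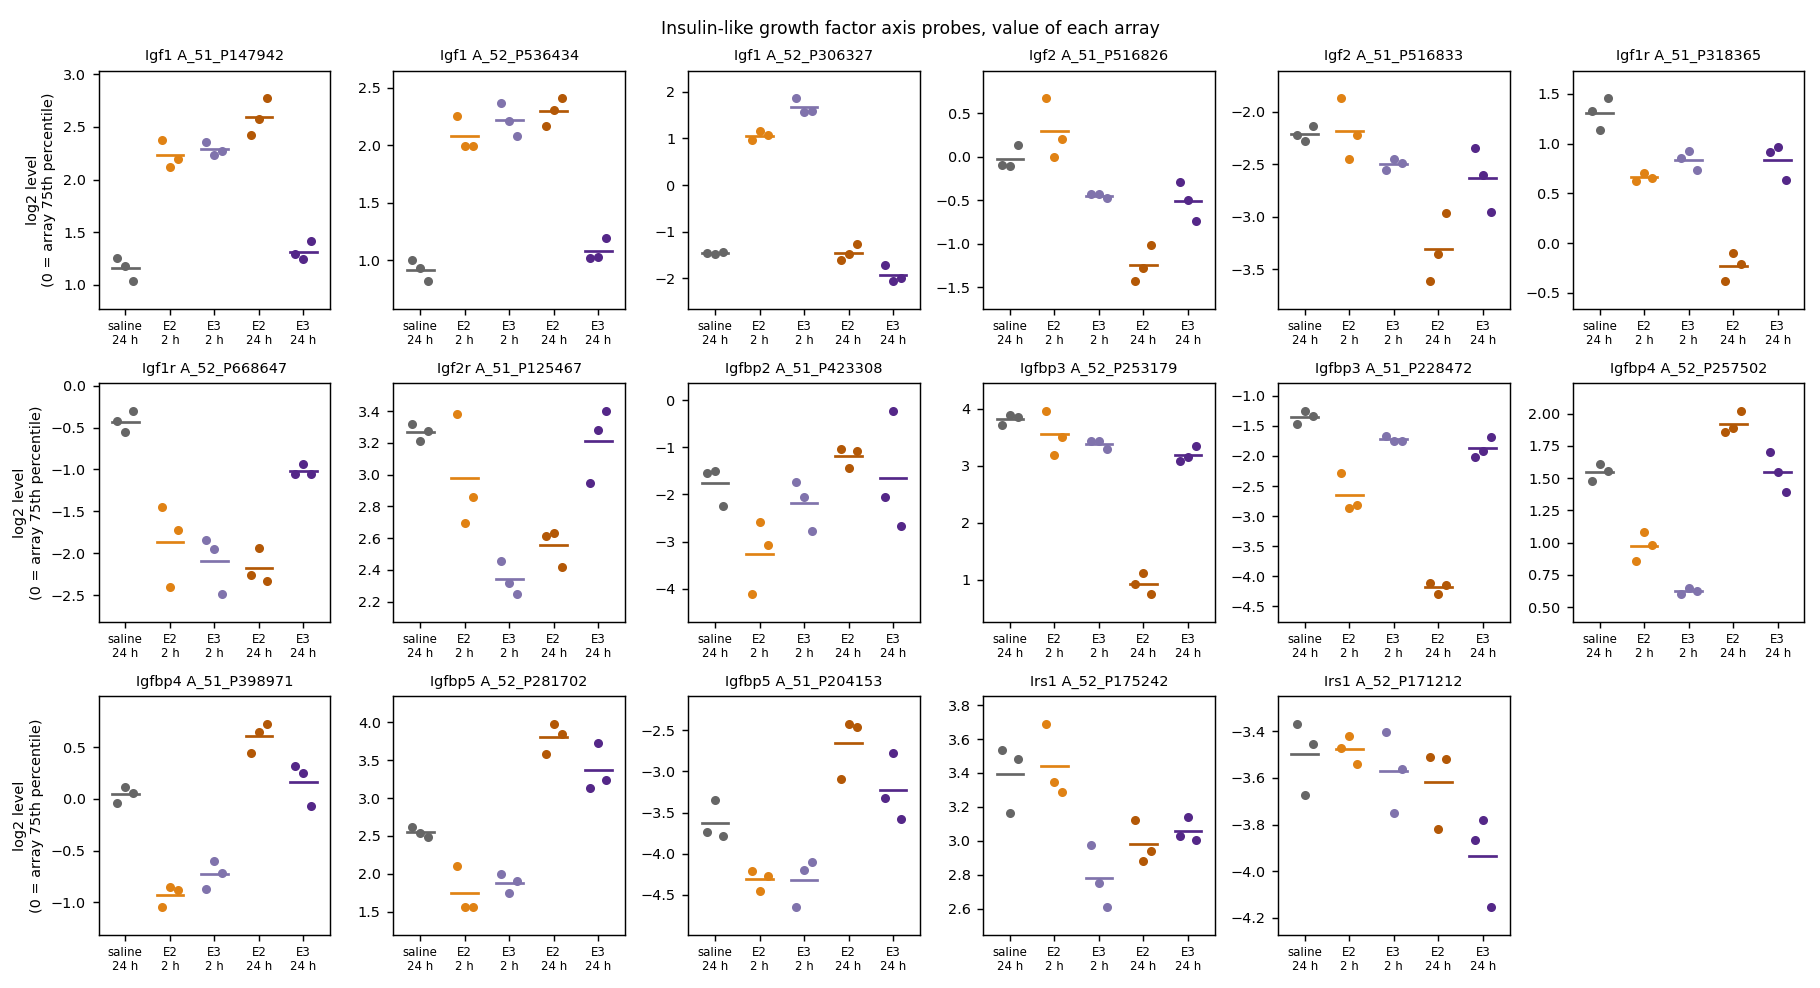
Level of each of the 17 probes on each of the 15 arrays, as log2 intensity with the array's 75th percentile at 0; points are arrays, bars are group means, and the vertical scale differs between panels. The Igf1 probes A_51_P147942 and A_52_P536434 stay high at 24 hr after E2 and return toward saline after E3, the clone probe A_52_P306327 is high at 2 hr, and both Igfbp3 probes are low at 24 hr after E2.

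Igf2, the other ligand, fell at 24 hr after E2. The probe A_51_P516826 (chr7:139078075-139078135 of mm7, 10 spots per array) had levels of −0.09, −0.10, and 0.13 with saline and −1.43, −1.28, and −1.01 with E2 at 24 hr. With E3 at 24 hr they were −0.28, −0.49, and −0.73. Both sets lay below saline, and the E3 arrays lay above those of E2. The fall with E2 was 2.33-fold (log2 −1.22 ± 0.17 SE, limma adjusted p = 6.22e-05) and 2.14-fold at the second probe (A_51_P516833, 0.415 kb away; −1.10 ± 0.19, adjusted p = 3.01e-04). The E3 changes were −0.48 (adjusted p = 0.0458) and −0.42 (adjusted p = 0.103) and were not called. E3 minus E2 at 24 hr was 0.74 (95% interval 0.37 to 1.11) and 0.68 (0.27 to 1.09), under the 2-fold threshold, with adjusted p of 0.0051 and 0.0144. Without replicate 1 of E2 at 24 hr, the fall of A_51_P516833 was −0.95 and lost its call, as it did with normexp background correction (−0.97) and quantile normalization (−0.95).

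At 2 hr no change of Igf2 against saline was called. The levels of A_51_P516826 with E2 were 0.68, 0.00, and 0.21 and overlapped those of saline, with replicate 1, which was alone on its slide, the highest. With E3 they were −0.43, −0.43, and −0.48, below saline. The change with E3 was −0.42 (adjusted p = 0.0561), and −0.58 within the slide shared with saline replicate 3. E3 minus E2 at 2 hr was −0.74 at this probe (95% interval −1.11 to −0.37, adjusted p = 0.00417, arrays not overlapping) and −0.32 at A_51_P516833 (−0.73 to 0.09), the opposite sign to 24 hr.

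Among the receptors, Igf1r, the kinase receptor of both ligands, fell with E2. The probe A_51_P318365 (chr7:64082649-64082708 of mm7) had levels of 1.32, 1.14, and 1.46 with saline, 0.63, 0.70, and 0.65 with E2 at 2 hr, and −0.38, −0.10, and −0.21 with E2 at 24 hr. With E3 they were 0.86, 0.93, and 0.73 at 2 hr and 0.91, 0.96, and 0.64 at 24 hr. All hormone arrays lay below all saline arrays, E2 at 24 hr the lowest, and the E3 arrays of both times overlapped. The fall was 2.90-fold with E2 at 24 hr (log2 −1.54 ± 0.11 SE, limma adjusted p = 6.70e-07). The other changes did not reach 2-fold, at −0.65 with E2 at 2 hr, −0.47 with E3 at 2 hr, and −0.47 with E3 at 24 hr (adjusted p = 3.04e-04, 0.00408, and 0.00732).

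A second Igf1r probe, to a cDNA clone (AK044980) 39.0 kb before the first, was already low at 2 hr. It had levels of −0.43, −0.56, and −0.30 with saline, −1.45, −2.41, and −1.72 with E2 at 2 hr, and −1.84, −1.94, and −2.49 with E3 at 2 hr. At 24 hr it was at −2.26, −1.94, and −2.33 with E2 and at −1.06, −0.94, and −1.05 with E3. The falls were 2.70-fold and 3.17-fold at 2 hr and 3.36-fold with E2 at 24 hr (limma adjusted p = 1.34e-04, 6.39e-05, and 3.35e-05). With the compared groups alone in the fit, the fall with E2 at 2 hr missed the p-value threshold. The fall with E3 at 2 hr was −1.79 within the shared slide and −1.41 without the 4 arrays high in pancreas genes, and missed the p-value threshold in both. With E3 at 24 hr it had risen again by 1.08 from its 2-hr level (adjusted p = 0.0014), and the change against saline was −0.59 (adjusted p = 0.0611). That rise lost its call when any of replicate 3 of E3 at 2 hr or replicates 1, 2, or 3 of E3 at 24 hr was left out (0.88 to 1.20 over the arrays left out), and without the 4 arrays high in pancreas genes (0.83). Whether this probe lies in an exon or an intron was not settled either.

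E3 and E2 differed in Igf1r at 24 hr, with E3 higher by 1.07 (95% interval 0.82 to 1.31, limma adjusted p = 4.10e-05) at A_51_P318365 and by 1.16 (0.67 to 1.65, adjusted p = 0.00182) at A_52_P668647. At 2 hr the differences were 0.18 (−0.07 to 0.42) and −0.23 (−0.72 to 0.26). Without replicate 1 of E2 at 24 hr, the 24-hr difference of A_51_P318365 was 0.99, just under 2-fold, and it was 0.99 with normexp background correction as well. The A_52_P668647 difference lost its call without replicate 1 or 3 of E2 at 24 hr or replicate 2 of E3 at 24 hr (1.08 to 1.28 over the arrays left out), and without the 4 arrays high in pancreas genes (1.25).

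Igf2r, the receptor that clears IGF2 and also sorts lysosomal enzymes, gave no called change against saline. Its levels (A_51_P125467, chr17:11399590-11399648 of mm7) were 3.32, 3.21, and 3.28 with saline, 3.38, 2.69, and 2.86 with E2 at 2 hr, and 2.46, 2.32, and 2.25 with E3 at 2 hr. At 24 hr they were 2.61, 2.63, and 2.42 with E2 and 2.95, 3.28, and 3.40 with E3. The arrays of E3 at 2 hr and E2 at 24 hr lay below saline, by −0.93 (adjusted p = 4.80e-04) and −0.71 (adjusted p = 0.00227), and those of E3 at 24 hr overlapped saline. With quantile normalization the E3 change at 2 hr was −1.06 and was called. E3 was lower than E2 at 2 hr by −0.64 (95% interval −0.99 to −0.28) and higher at 24 hr by 0.66 (0.30 to 1.01), neither reaching 2-fold.

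Igfbp3, the main carrier of IGFs in serum, had the lowest values relative to saline among the 4 member binding proteins. Its probe A_52_P253179 (chr11:7158599-7158658 of mm7) had levels of 3.72, 3.89, and 3.86 with saline, 0.93, 1.12, and 0.74 with E2 at 24 hr, and 3.08, 3.15, and 3.34 with E3 at 24 hr. The junction probe had levels of −1.47, −1.25, and −1.34, then −4.10, −4.30, and −4.14, and then −2.01, −1.92, and −1.69 in the same groups. In both, the E2 arrays lay far below the others and the E3 arrays a little below saline.

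The falls with E2 at 24 hr were 7.42-fold (log2 −2.89 ± 0.16 SE, limma adjusted p = 1.80e-07) and 7.10-fold at the junction probe (−2.83 ± 0.14, adjusted p = 8.87e-08). With E3 the changes were −0.63 (adjusted p = 0.0115) and −0.52 (adjusted p = 0.0149), not called. E3 exceeded E2 by 4.79-fold (log2 2.26, 95% interval 1.90 to 2.62, adjusted p = 5.15e-06) and 4.96-fold at the junction probe (2.31, 2.00 to 2.62, adjusted p = 2.31e-06). The 2 probes thus gave the same sizes at 24 hr, 1.88 kb apart, and these 4 calls held with every array left out in turn and without the 4 arrays high in pancreas genes.

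At 2 hr the Igfbp3 probes did not give the same change. With E2, the junction probe had levels of −2.28, −2.86, and −2.82, all below saline, and fell 2.46-fold (−1.30, adjusted p = 7.12e-06). The other probe had levels of 3.96, 3.19, and 3.51, which spanned saline, for a change of −0.27 (adjusted p = 0.172). The junction probe minus the other was lower by 1.03 with E2 at 2 hr than with saline, and the arrays of this difference did not overlap. Hormone, strain, slide, and scanner cannot be told apart in it. With E3 at 2 hr the changes were −0.37 and −0.44 and the difference between the probes overlapped that of saline. E3 minus E2 at 2 hr was 0.93 at the junction probe (95% interval 0.62 to 1.24), under 2-fold, and 1.12 without replicate 1 of E2 at 2 hr, which was then called, and −0.17 (−0.52 to 0.19) at the other.

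Igfbp4, a binding protein that holds IGFs until the protease PAPP-A cleaves it, was low at 2 hr and above saline at 24 hr with E2. The coding probe had levels of −0.04, 0.11, and 0.06 with saline, −1.04, −0.85, and −0.88 with E2 at 2 hr, and −0.87, −0.60, and −0.71 with E3 at 2 hr. The 24-hr levels were 0.45, 0.65, and 0.72 with E2 and 0.31, 0.25, and −0.07 with E3. The E2 arrays lay below saline at 2 hr and above it at 24 hr, and the E3 arrays lay below saline at 2 hr and overlapped it at 24 hr.

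No Igfbp4 change against saline reached 2-fold with the main scaling and all arrays. They were −0.97 and −0.77 at 2 hr and 0.56 with E2 at 24 hr at the coding probe (adjusted p = 1.63e-05, 1.63e-04, and 0.00123), and −0.57, −0.92, and 0.37 at A_52_P257502 (chr11:99161059-99161118 of mm7; adjusted p = 1.59e-04, 5.63e-06, and 0.00362). The fall of the coding probe with E2 at 2 hr was just past 2-fold and called with the percentile over probes detected on all arrays (−1.03), without replicate 2 of E2 at 2 hr (−1.01), and without saline replicate 1 (−1.01). The change from 2 to 24 hr with E2 was a rise of 2.89-fold at the coding probe (1.53, limma adjusted p = 2.02e-07) and was 1.93-fold at A_52_P257502 (0.95, not called). With E3 it was 0.89 and 0.92, not called, and without replicate 3 of E3 at 24 hr it was just past 2-fold and called at both (1.01 and 1.002), as it was at the coding probe without the 4 arrays high in pancreas genes (1.03). E3 was below E2 at 24 hr by −0.44 (95% interval −0.70 to −0.19) and −0.37 (−0.57 to −0.18).

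Igfbp5, a binding protein of stromal and muscle cells that also binds extracellular matrix, was also low at 2 hr and above saline at 24 hr with E2. The probe A_52_P281702 (chr1:73100116-73100175 of mm7) had levels of 2.61, 2.54, and 2.49 with saline, 2.10, 1.56, and 1.56 with E2 at 2 hr, and 1.99, 1.75, and 1.91 with E3 at 2 hr. At 24 hr they were 3.58, 3.98, and 3.84 with E2 and 3.14, 3.73, and 3.24 with E3. The 2-hr arrays lay below saline and the 24-hr arrays above it for both hormones, while E3 and E2 overlapped at each time.

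Among all tested probes 6.93% were called higher and 11.1% lower with E2 at 24 hr, and 1.85% and 1.96% with E3. Against saline, the median log2 change of 6 stroma markers was 0.52 with E2 (2 called higher) and 0.65 with E3 (1 called), that of 6 smooth muscle markers 0.46 (2 called) and 0.67 (1 called), and that of 6 epithelium markers 1.20 (4 called) and 0.66 (0 called). It was −0.50 (1 called lower) and −0.17 (0 called) for 5 endothelium markers and −0.40 (1 called higher and 1 lower) and −0.22 (0 called) for the 6 uterine markers. At 2 hr the uterine markers had medians of −1.04 with E2 (1 called higher, 3 lower) and −0.89 with E3 (1 higher, 2 lower). Those of the stroma markers were −0.45 and −0.44 (1 called higher in each). Of all probes, 10.6% were called higher and 10.7% lower with E2 at 2 hr, and 4.68% and 9.11% with E3. From 2 to 24 hr, stroma markers had a median of 1.02 with E3, with 3 of 6 called (9.65% of all probes higher). With E2 their median was 0.38, with 2 called (13.9% of all probes higher). Their part in the Igfbp5 changes was not tested.

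Igfbp5 rose 2.39-fold with E2 at 24 hr at A_52_P281702 (log2 1.26 ± 0.18 SE, limma adjusted p = 6.82e-05). The call was lost without the 4 arrays high in pancreas genes (1.03), 2 of which were E2 arrays at 24 hr. At A_51_P204153 the E2 change was 0.96 and not called, but 1.16 with quantile normalization and 1.18 without replicate 1 of E2 at 24 hr, both called. With normexp background correction it was 0.79 and not called. With E3 at 24 hr the change was 0.82 at A_52_P281702 (adjusted p = 0.00417) and 0.40 at A_51_P204153 (adjusted p = 0.209), where the arrays overlapped saline. At 2 hr the change of A_52_P281702 was −0.81 with E2 and −0.66 with E3. From 2 to 24 hr this probe rose 4.18-fold with E2 and 2.80-fold with E3 (adjusted p = 5.25e-07 and 1.95e-05). At A_51_P204153 (2.54 kb away) these rises were 3.14-fold and 2.13-fold (adjusted p = 3.86e-05 and 0.00164), of which the second lost its call when replicate 1 or 2 of either E3 group was left out (0.87 to 1.26). Neither held without the 4 arrays high in pancreas genes (1.21 and 1.42) or with normexp background correction (1.34 and 1.28). E3 minus E2 at 24 hr was −0.43 (95% interval −0.82 to −0.05) and −0.57 (−1.07 to −0.06), with adjusted p of 0.075 and 0.0757, so these data do not set E3 and E2 apart in Igfbp5, nor do the intervals show that they act alike.

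Igfbp2, a binding protein that is also made by liver, varied widely between arrays. Its levels (A_51_P423308, chr1:73093964-73094023 of mm7) were −1.54, −1.51, and −2.24 with saline, −4.11, −2.58, and −3.07 with E2 at 2 hr, and −1.73, −2.06, and −2.77 with E3 at 2 hr. The 24-hr levels were −1.05, −1.44, and −1.07 with E2 and −2.05, −0.23, and −2.66 with E3. The arrays of E2 at 2 hr lay below saline and those of E2 at 24 hr above it, and a single array of E3 at 24 hr (replicate 2) was above all others. The SD was 1.26 among the arrays of E3 at 24 hr and 0.78 with E2 at 2 hr, and no change against saline was called. From 2 to 24 hr with E2, where the arrays did not overlap, the change was 2.07 (4.19-fold, limma adjusted p = 0.00483), short of the p-value threshold with all arrays and past it without replicate 2 of E3 at 24 hr, whose spread enters the shared estimate. The change with E2 at 2 hr was −1.49 (95% interval −2.69 to −0.30, adjusted p = 0.0319), in the group with the lowest liver values. The part of liver RNA in it was not tested.

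Irs1, the adaptor, gave no called change in any comparison. Its brighter probe A_52_P175242 (chr1:82447810-82447869 of mm7) had levels of 3.54, 3.17, and 3.48 with saline, 3.69, 3.35, and 3.29 with E2 at 2 hr, and 2.98, 2.76, and 2.61 with E3 at 2 hr. At 24 hr they were 3.12, 2.88, and 2.94 with E2 and 3.03, 3.14, and 3.00 with E3. The saline and E2 arrays at 2 hr overlapped, and the other 3 groups lay below saline. The changes were 0.05, −0.61, −0.41, and −0.34 for E2 at 2 hr, E3 at 2 hr, E2 at 24 hr, and E3 at 24 hr (adjusted p = 0.782, 0.00256, 0.0199, and 0.0764). The dimmer probe A_52_P171212, 3.87 kb away, had levels between −4.15 and −3.37 on all arrays and changes of 0.02, −0.07, −0.12, and −0.44, of which the last passed adjusted p alone (0.0224).

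**Figure D2:**
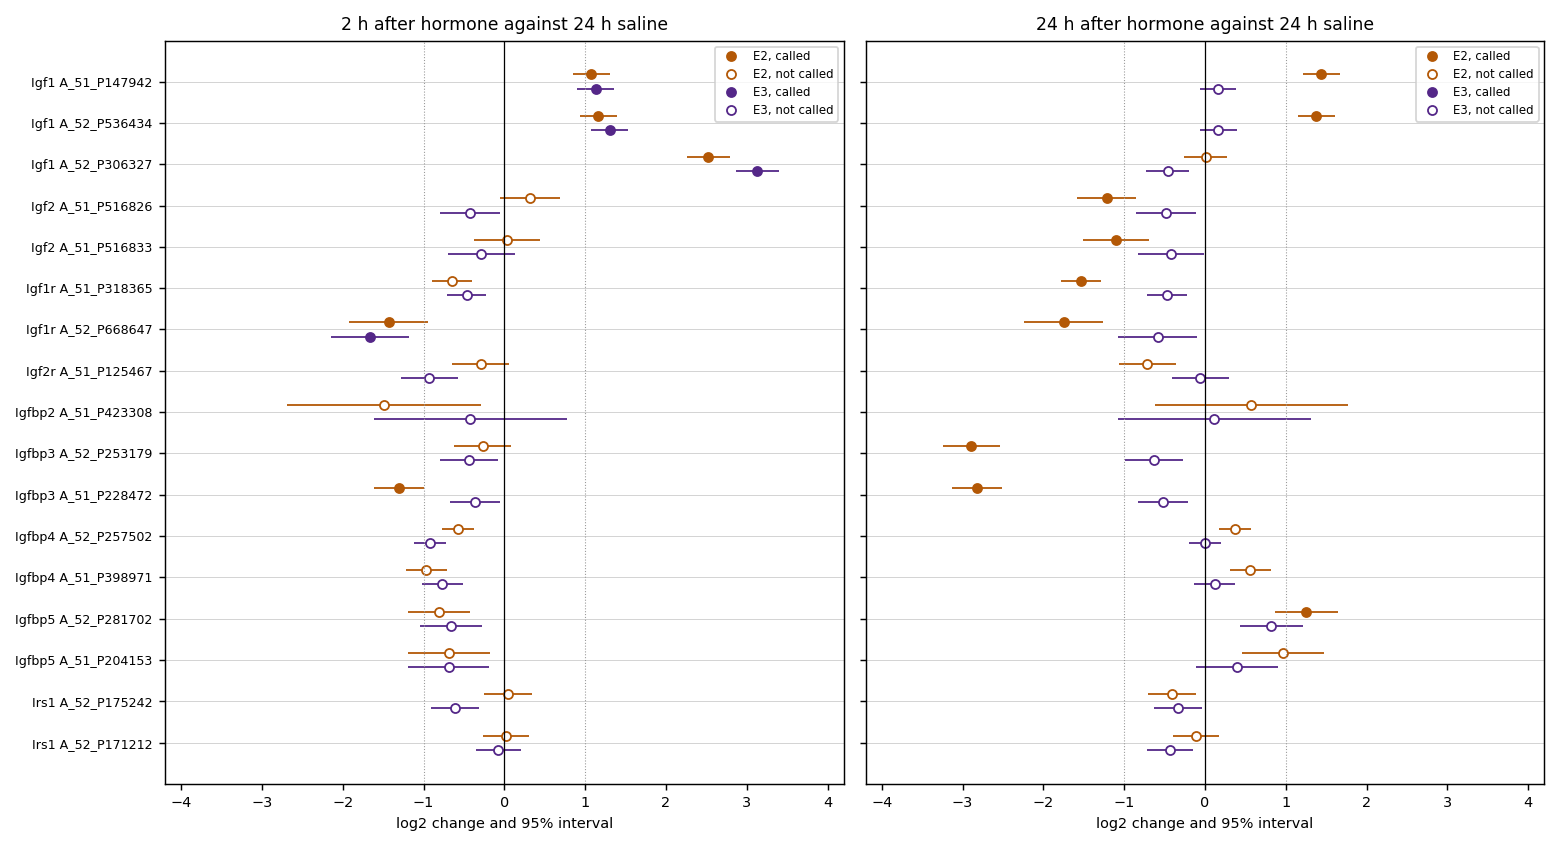
Log2 change of each of the 17 probes against the 24-hr saline arrays at 2 hr (left) and 24 hr (right) for E2 and E3, with 95% intervals; filled points are changes past p below 0.001 and 2-fold (dotted lines). At 2 hr the Igf1 and A_52_P668647 points of both hormones and the A_51_P228472 point of E2 are filled, and at 24 hr the filled points are all E2.

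Over the 17 probes, which share targets and are not independent, E2 at 2 hr gave 3 higher and 2 lower calls, against 10.6% higher and 10.7% lower among all tested probes. With E3 at 2 hr there were 3 higher and 1 lower, against 4.68% and 9.11%. With E2 at 24 hr there were 3 higher and 6 lower, against 6.93% and 11.1%. With E3 at 24 hr there were 0, against 1.85% higher and 1.96% lower, and 7 of the 17 had an adjusted p below 0.05. The E2 calls at 24 hr were thus 9 of 17 probes, from 5 of 9 genes (Igf1, Igf2, Igf1r, Igfbp3, and Igfbp5).

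Direct comparison of the hormones gave 0 called member probes at 2 hr, against 1.54% higher and 5.83% lower with E3 among all tested probes, and 6 had an adjusted p below 0.05. At 24 hr E3 was higher at 4 probes (both of Igf1r and both of Igfbp3) and lower at 2 (Igf1), against 2.77% and 2.07%. From 2 to 24 hr, 3 probes rose and 5 fell with E2, against 13.9% and 17.2%, and 3 rose and 2 fell with E3, against 9.65% and 6.46%. The signed value of E3 minus E2 at 24 hr less that at 2 hr was called positive at 5 probes and negative at 3, against 11.1% and 4.39%, and its sign does not give which time had the larger gap. The 5 were A_52_P668647 of Igf1r, A_51_P516826 of Igf2, the Igf2r probe, and both Igfbp3 probes, and the 3 were those of Igf1.

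By adjusted p below 0.05 alone, with no minimum change, the member counts stood beside larger shares of all probes. They were 11 of 17 with E2 at 2 hr (61.9% of all probes), 13 with E3 at 2 hr (49.6%), 14 with E2 at 24 hr (61.4%), and 7 with E3 at 24 hr (34.1%). E3 and E2 differed at 6 probes at 2 hr (43.3%) and 12 at 24 hr (36.5%). The counts from 2 to 24 hr were 14 with E2 (69.9%) and 10 with E3 (55.3%), and that of the difference between times was 12 (46%). The median log2 change of the members against saline was −0.29, −0.44, −0.12, and −0.34 for E2 at 2 hr, E3 at 2 hr, E2 at 24 hr, and E3 at 24 hr, beside −0.08, −0.11, −0.06, and −0.01 over all probes.

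**Figure D3:**
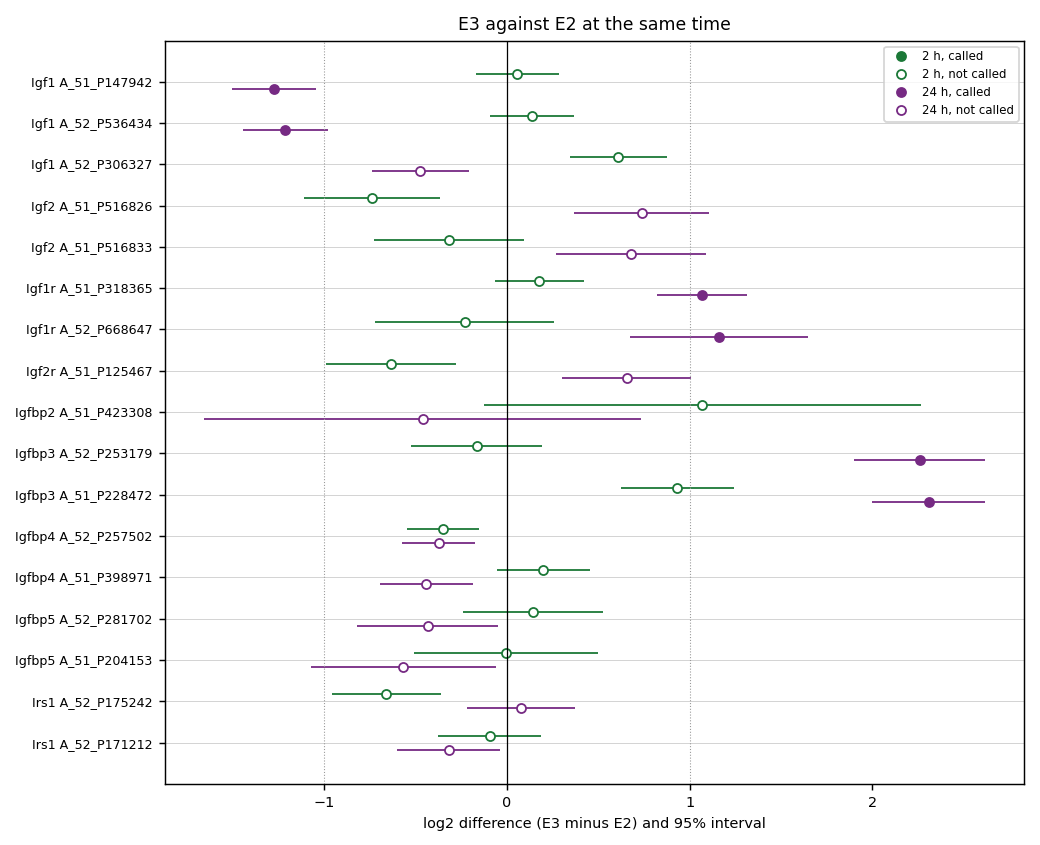
E3 minus E2 log2 difference of each of the 17 probes at 2 hr and at 24 hr with 95% intervals; filled points passed p below 0.001 and 2-fold (dotted lines). No point is filled at 2 hr, and at 24 hr the filled points are Igf1 (−1.28 and −1.21), Igf1r (1.07 and 1.16), and Igfbp3 (2.26 and 2.31).

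Of 15 further genes listed around the axis, 13 were tested by 1 probe each, and Igf2bp1 and Pappa2 did not pass the filter on dim probes. The 15 encode carriers, proteases and their inhibitors, receptors, and, for the Igf2bp genes, RNA-binding proteins. With E2 at 24 hr 1 rose (Stc2) and 3 fell (Pappa, Stc1, and Igfbp1), and with E3 at 24 hr 0 rose and 2 fell (Pappa and Igfbp1), beside 6.93% higher and 11.1% lower with E2 and 1.85% and 1.96% with E3 among all tested probes. At 2 hr Stc1 fell with both hormones, and Igfbpl1, an IGFBP-like protein, rose with E3 (1.74), so that 0 rose and 1 fell with E2 (10.6% and 10.7% of all probes) and 1 rose and 1 fell with E3 (4.68% and 9.11%). The size of the Igfbpl1 rise is uncertain, since its probe was well above background on 1 of 3 saline arrays, beside 3 of 3 with E3 at 2 hr. The median log2 changes of the 13 were 0.00 and −0.12 at 2 hr and −0.33 and −0.11 at 24 hr for E2 and E3.

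Pappa encodes PAPP-A, the protease that cleaves IGFBP4 and IGFBP5, and had levels of 1.93, 1.85, and 1.96 with saline, −0.84, −0.25, and −0.66 with E2 at 24 hr, and 0.52, 0.42, and 0.30 with E3 at 24 hr. The 3 groups did not overlap, with E2 the lowest. The falls were −2.50 with E2 and −1.50 with E3 (limma adjusted p = 2.79e-07 and 9.79e-05), and E3 minus E2 was 1.00 (adjusted p = 4.55e-04), just short of 2-fold.

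Stc1 and Stc2 encode stanniocalcins, known as inhibitors of PAPP-A, and took opposite courses. Stc2 had levels of −1.51, −1.74, and −1.55 with saline, 0.88, 0.69, and 0.93 with E2 at 24 hr, and −1.04, −1.36, and −1.23 with E3 at 24 hr. It rose by 2.44 with E2 (adjusted p = 4.19e-07), and E3 was lower than E2 by −2.05 (adjusted p = 8.23e-06). Stc1 fell by 2.35 with E2 at 24 hr (adjusted p = 8.07e-06) and by 1.86 and 2.71 with E2 and E3 at 2 hr, and the E3 arrays at 24 hr overlapped saline.

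Igfbp1, the binding protein typical of liver, fell by 3.54 with E2 and 2.86 with E3 at 24 hr (adjusted p = 1.83e-04 and 0.00265). Its saline levels were −2.19, −4.13, and −4.09, and the highest was on the array with the highest liver mean (−0.12). The part of liver RNA in this change was not tested.

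**Figure D4:**
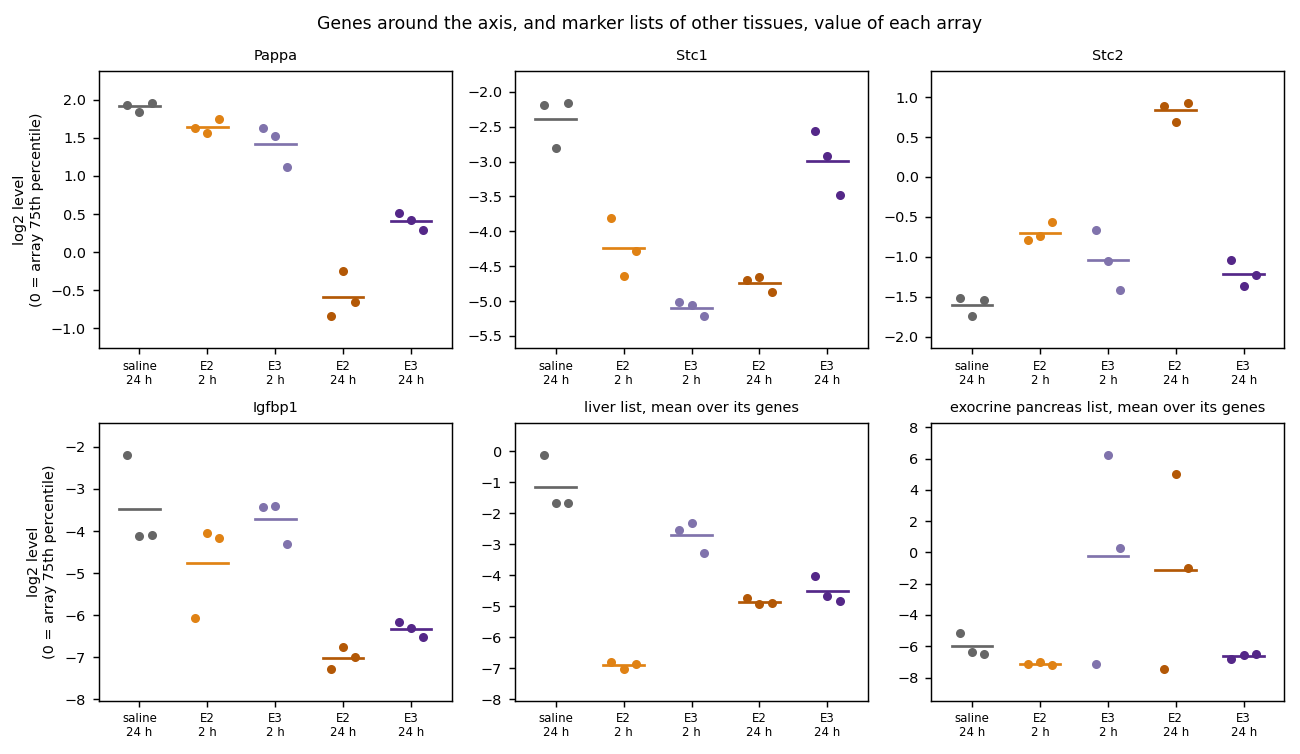
Level on each of the 15 arrays of Pappa, Stc1, Stc2, and Igfbp1, and the mean level of the 14 liver and 6 exocrine pancreas genes, as log2 with the array's 75th percentile at 0; points are arrays and bars are group means. Pappa is lowest and Stc2 highest at 24 hr after E2, the liver mean is highest with saline, and the pancreas mean is high on 4 arrays.

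Of 44 tested genes of insulin and IGF signaling inside the cell, 4 rose and 6 fell with E2 at 2 hr (10.6% and 10.7% of all probes) and 2 rose and 6 fell with E3 at 2 hr (4.68% and 9.11%). At 24 hr 1 rose and 3 fell with E2 (6.93% and 11.1%), and 0 were called with E3 (1.85% and 1.96%), when 10 of the 44 had an adjusted p below 0.05, beside 34.1% of all probes. Akt1, a kinase downstream of PI3 kinase, rose by 1.35 with E2 at 2 hr and was higher by 0.82 with E3. Pik3r1, a regulatory subunit of PI3 kinase, fell by 1.40 and 1.35 at 2 hr, and Ptpn1, a phosphatase that acts on the insulin receptor, rose by 1.71 and 1.48. Sesn1, a stress-induced inhibitor of mTOR signaling, fell by 2.43 and 2.02 at 2 hr, while Sesn2, of the same family, rose by 1.59 and 1.03. Grb14, an adaptor that inhibits the insulin receptor, fell by 1.38 and 1.08 at 2 hr. At 24 hr it fell by 1.04 with E2 and the change was 0.24 with E3, a difference of 1.28 that was called. Deptor (Depdc6 on the array), an inhibitor of mTOR, fell by 1.48 with E2, and E3 exceeded E2 by 1.14. Foxo3 (Foxo3a on the array), a transcription factor that AKT holds out of the nucleus, fell with E2 at both times (by 1.08 and 1.07) and with E3 at 2 hr (by 1.44).

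Genes with a pattern like that of Igf1 were sought among 16613 other gene names, by the root mean square difference of the 4 changes against saline. The nearest to the coding probe were E130012A19Rik (0.0379), Gng12 (0.0913), and Arsi (0.112) on the log2 scale. E130012A19Rik, for example, had changes of 1.13, 1.31, 1.45, and 0.15 for E2 at 2 hr, E3 at 2 hr, E2 at 24 hr, and E3 at 24 hr. The nearest to the Igf1r clone probe were AW986112 (0.118), Micalcl (0.135), and Prdm1 (0.163). These are likenesses over 4 changes that share the saline arrays and carry no test.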

How the data were processed

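The authors labeled RNA with Cy3 and extracted spot intensity with Agilent Feature Extraction 9.5.3.1, per the file headers. The deposited values are background-subtracted and detrended intensity on a linear scale for 45018 spots, not normalized between arrays, and the deposited series table holds the same intensity values (largest relative difference 0). Probe coordinates are of mm7.

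Control spots were left out, 1893 outlier-flagged spots on the 15 arrays were set aside, spots of 1 probe were averaged, and log2 intensity minus the log2 75th percentile of the array was analysed, so a shift shared by most probes of an array would not be seen. The filter kept 34776 of 41174 probes, those flagged well above background by 2 or more of the 3 arrays in any group. Groups were compared in 9 comparisons with limma 3.58.1 in R 4.3.3 (a mean for each of the 5 groups, with 10 residual degrees of freedom and a prior of 2.06). The design has 3 arrays per group, for which an exact permutation test could not go below p = 0.1. The script was tested on simulated data. Per gene, the probe with the highest mean level stood for further genes of the axis. All members were named, further genes of the axis could be named where called in a comparison, and the 3 genes of most similar pattern were sought for members called against saline in at least 3 of 4 hormone groups.

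Results were recomputed with normexp (offset 50), with quantiles equalized between arrays, with the percentile over probes detected on all arrays, no scaling, no filter, a mean signal above 100, outlier spots kept, other thresholds, each array left out, E2 at 2 hr left out, the compared groups alone, a replicate block, slide as a random block, comparison within a slide, and the series table. Leaving out 4 arrays high in pancreas genes was chosen after seeing the data. The members and lists were chosen with earlier results of these data known. Figures were drawn with matplotlib. Columns of the authors' own comparisons were not among the files.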

Additional observations from a re-analysis of the deposited data

Results flagged for a closer look

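The E3 minus E2 difference was not the same at 24 hr as at 2 hr at 8 member probes, by limma's test of the difference between times (adjusted p of 1.51e-05 to 0.00361). On the log2 scale the 24-hr minus 2-hr values were −1.33 (A_51_P147942), −1.35 (A_52_P536434), and −1.08 (A_52_P306327) for Igf1, 1.39 (A_52_P668647) for Igf1r, 1.48 (A_51_P516826) for Igf2, 1.29 (A_51_P125467) for Igf2r, and 1.38 (A_51_P228472) and 2.43 (A_52_P253179) for Igfbp3. Each of them rests on the arrays of E2 at 2 hr, whose strain, slides, and scanner were their own, so strain and hormone cannot be told apart in it. The Igf1r value kept its call with 3 of 15 arrays left out in turn, over a range of 1.19 to 1.66, and at 1.23 to 1.53 over the other settings it missed only the p-value threshold with quantile normalization, with the percentile over detected probes, without scaling, with the compared groups alone, and with a replicate block. Without the 4 arrays high in pancreas genes, the calls of Igf1 (3 probes) and of A_52_P253179 were kept. The other 4 values were 1.23 (Igf1r), 1.65 (Igf2), 1.11 (Igf2r), and 1.24 (A_51_P228472), past 2-fold with p at or above 0.001 and 1 array left in each of 2 groups. The value of A_52_P306327 lost its call without replicate 3 of E2 at 24 hr (−0.98), without replicate 1 of E3 at 2 hr (−0.99), with normexp background correction (−0.78), and without scaling (−1.04). Groups of 3 arrays were not tested for outlying arrays.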

How the results depend on the processing

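Among 45 called changes of member probes under 32 alternative settings, 1317 of 1378 values kept the direction and the call, 61 kept the direction alone, and 0 reversed. Of these settings 3 looser thresholds and the series value table could not lose a call, and over the other 28 settings 1137 of 1198 values kept it. Counts of called probes went from 5 to 9 (E2 at 2 hr), 4 to 8 (E3 at 2 hr), 5 to 9 (E3, 24 against 2 hr), 0 to 1 (E3 at 24 hr), and 0 to 4 (E3 against E2 at 2 hr) with p below 0.001 and no minimum change. With adjusted p below 0.05 and no minimum change they were 11 (E2 at 2 hr), 13 (E3 at 2 hr), 14 (E2 at 24 hr, from 9), 7 (E3 at 24 hr), 6 (E3 against E2 at 2 hr), 12 (E3 against E2 at 24 hr, from 6), 14 (E2, 24 against 2 hr, from 8), and 10 (E3, 24 against 2 hr). Within the shared slide, E3 at 2 hr gave 2. The compared groups alone gave 3 for E3 at 24 against 2 hr. Without the 4 arrays high in pancreas genes, the difference between times gave 4 in place of 8, and 10 of 45 calls were lost, with 9 of the 10 still past 2-fold (sizes of 0.83 to 1.65 on the log2 scale). This left 1 array in each of 2 groups, assumed to vary like the others. The rise of Igf1 A_51_P147942 with E2 at 2 hr was 0.99 after quantile normalization and lost its call. With each array left out, the counts were 5 to 6 (E2 at 2 hr), 4 to 4 (E3 at 2 hr), 9 to 9 (E2 at 24 hr), 0 to 0 (E3 at 24 hr), 0 to 1 (E3 against E2 at 2 hr), 4 to 6 (the same at 24 hr), 7 to 9 (E2, 24 against 2 hr), 3 to 7 (E3, 24 against 2 hr, with 3 without replicate 2 of E3 at 24 hr), and 7 to 8 (the difference between times). Of all probes, E3 at 24 hr called 643 higher and 682 lower, against 761 and 538 after quantile normalization and 547 and 876 without scaling. E3 against E2 at 24 hr called 964 higher and 721 lower, against 824 and 794 and against 791 and 822. The median of all probes moved by −0.11 with E3 at 2 hr and by 0.12 from 2 to 24 hr with E3. With a replicate block, 44 of 45 calls were kept, and the Igf1r A_52_P668647 difference between times was lost. The replicate numbers do not pair the arrays, since deviations from the group means of arrays with the same number had correlations of −0.458 to 0.544 (median 0.038), against −0.507 to 0.621 (0.017) for different numbers. Arrays on 1 slide had a correlation of −0.012. Precision is limited by 3 arrays per group.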
